A study of Mus musculus with 4 samples.

Results

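The 10 genes described here encode nuclear hormone receptors known for their part in the postnatal maturation of the heart. They are the thyroid hormone receptors Thra and Thrb, the glucocorticoid receptor Nr3c1, the mineralocorticoid receptor Nr3c2, the estrogen-related receptors Esrra, Esrrb and Esrrg, the retinoid X receptors Rxra and Rxrg, and the fatty acid receptor Ppard. They were taken by symbol from the 27998 gene rows of the deposited count matrices, and all 10 were present. Single nuclei came from right ventricles (RVs) of WT C57/BL6J mice at P21, with 2 libraries from sham-operated mice and 2 from mice with RV volume overload (RVVO) made by a fistula between the abdominal aorta and the inferior vena cava early in postnatal life. The sources used here do not say whether a library is 1 mouse or a pool, so the tests measure the spread between libraries. Cardiomyocytes (CMs) were the nuclei with at least 1% of their unique molecular identifiers (UMIs, counted RNA molecules) on Ryr2, the calcium release channel of the sarcoplasmic reticulum. There were 11629 CMs among the 43180 nuclei kept, with 2345 and 2817 in the sham libraries and 2736 and 3731 in the RVVO libraries. The other lineages were clusters that carried the markers of endothelial cells (ECs), fibroblasts, macrophages, pericytes, smooth muscle or epicardium, and each name below means nuclei like that cell type.

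Nuclear receptors are transcription factors that bind a small lipid-soluble ligand or, in the case of the estrogen-related receptors, act without a known natural hormone. Thyroid hormone and glucocorticoids rise around birth and in the weeks after it, and their receptors are known to switch the heart from fetal to adult contractile genes and to mature its calcium handling. The estrogen-related receptors and the peroxisome proliferator-activated receptors drive genes of mitochondria and fatty acid use, and retinoid X receptors are the shared dimer partners of thyroid, retinoid and fatty acid receptors.

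The libraries held 51010039 to 64739206 UMIs, and CMs had a median of 5109, 4939, 8531 and 4906 UMIs per nucleus in sham 1, sham 2, RVVO 1 and RVVO 2. Pairs of libraries shared 28 to 70 barcodes. Of the CMs, 10874 lay in clusters that the CM markers named and 690 in clusters that stayed unnamed. By library the 690 were 238, 184, 198 and 70 in sham 1, sham 2, RVVO 1 and RVVO 2. These are counts of nuclei, while the CM sums weigh a nucleus by its UMIs. In RVVO 1 the CMs outside the CM clusters held a larger share of the CM UMIs than of the CM nuclei. The 10 CM markers together made up 63908 to 71950 counts per 1000000 UMIs (CPM) in CMs and 16319 to 22571 CPM in ECs, so RNA of CM genes was also counted in ECs. Both sham libraries had Xist RNA, at 1395 to 1482 CPM in CMs against 0.721 to 1.05 CPM in RVVO, and both RVVO libraries had the Y-linked Uty, at 360 to 379 CPM. The sham libraries thus came from female and the RVVO libraries from male mice, so for every difference below the effect of surgery and that of sex cannot be told apart.

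The receptors fell into those highest in CMs and those highest elsewhere. In CMs, 6 of them (Thrb, Nr3c2, Esrra, Esrrb, Esrrg and Rxrg) had a higher level in every library than any other of the 7 lineages in any library. Nr3c1 had its lowest mean level in CMs, and Rxra was lower in CMs of every library than in any of the other lineages among these 7, although glial nuclei of sham 1 had 10.4 CPM, from 2 UMIs. Thra was highest in fibroblasts and Ppard in pericytes. The order is over these 7 lineages. The clusters with glial markers (39 to 107 nuclei per library) and adipocyte markers (10 to 137 nuclei) were left out of it for their few nuclei, and their values are given where they would change a place. Levels across lineages are given as a description without a test, since the lineages were defined from the same nuclei. A level is the UMIs of a gene per 1000000 UMIs (CPM), summed over the nuclei of a lineage in 1 library.

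**Figure D1:**
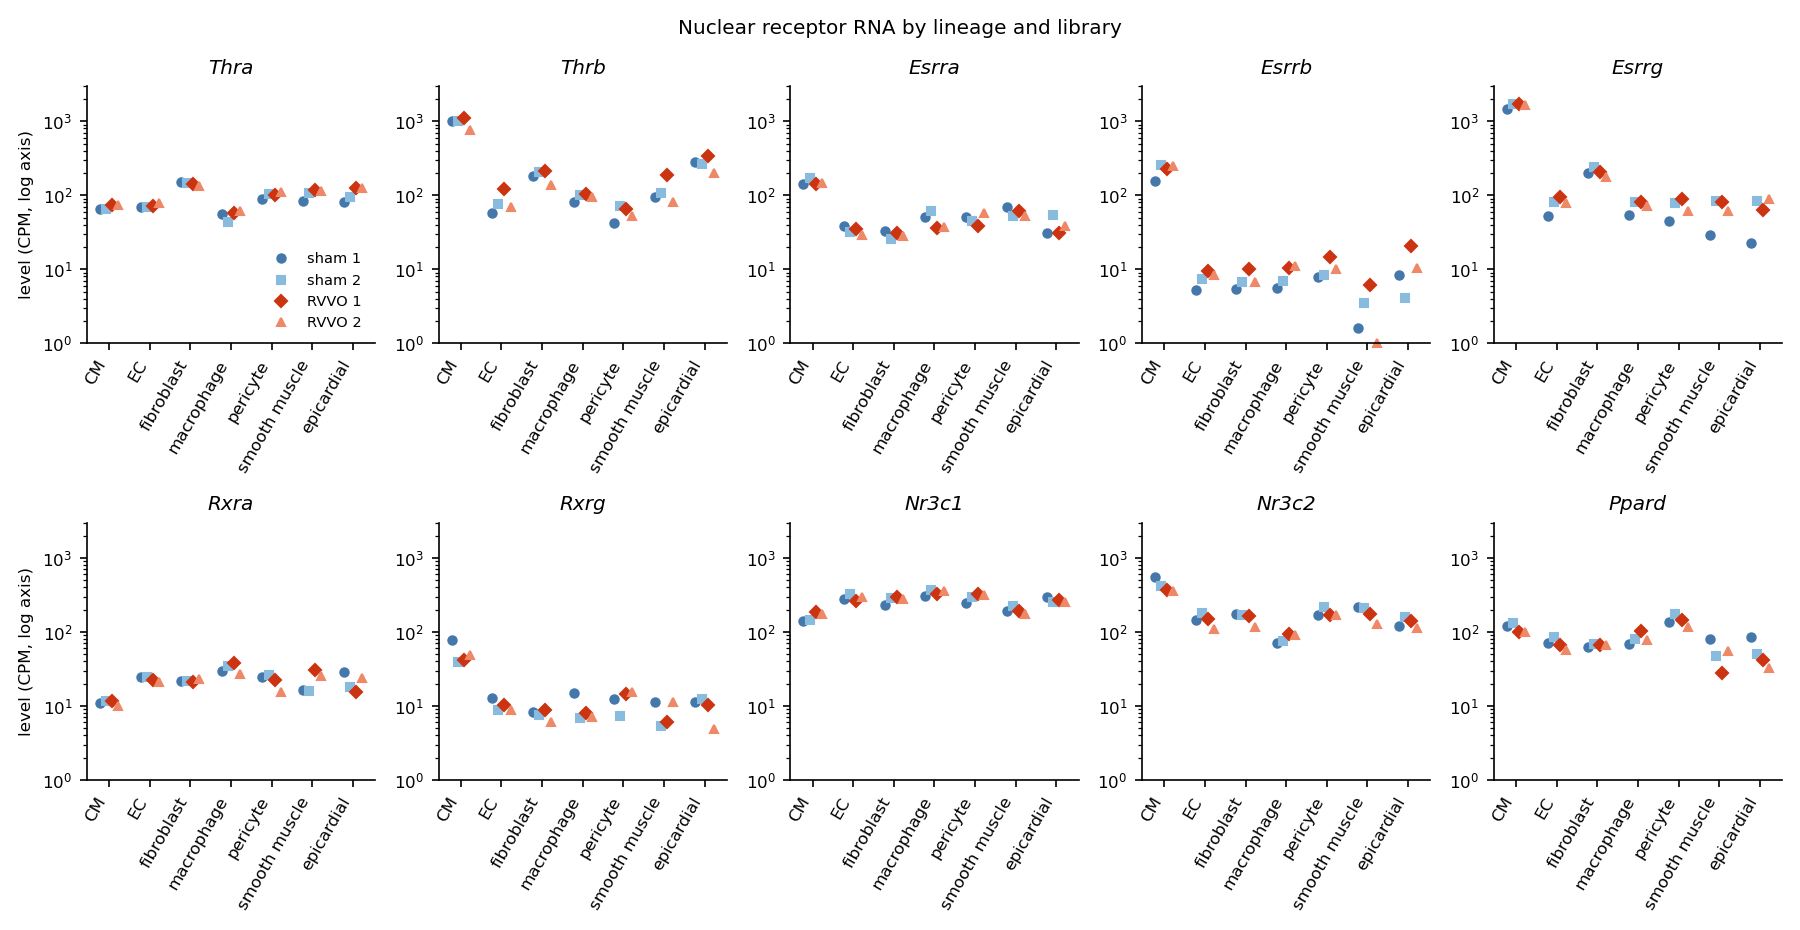
Level of each receptor (CPM, log axis) in 7 lineages, with 1 point per library; a value under 1 CPM is drawn at 1. The 6 receptors Thrb, Nr3c2, Esrra, Esrrb, Esrrg and Rxrg stand highest in CMs, while Rxra is lowest there with a mean of 11.1 CPM.

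The thyroid hormone receptors were highest in different lineages. Thrb (chr14:17660261-18038090, plus strand, GRCm38) was counted in CMs at 995 CPM in sham 1, 1002 in sham 2, 1102 in RVVO 1 and 753 in RVVO 2. The next of the 7 lineages was the epicardium at 271 ± 57.8 CPM (SD, n = 4 libraries), 3.55-fold lower than the 963 ± 148 CPM of CMs. Epicardium and fibroblasts (186 ± 34.2 CPM) had overlapping ranges, and the lowest level among the 7 was that of pericytes at 57.2 ± 12.9 CPM. Adipocyte nuclei, outside the order, had 43.5, 380, 304 and 512 CPM of Thrb in sham 1, sham 2, RVVO 1 and RVVO 2. The sham 1 value is from 3 UMIs in 13 nuclei, and RVVO 1 had 10 nuclei. Their mean of 310 CPM lies between those of CMs and epicardium, while the sham 1 value lies below the epicardium. Thra (chr11:98740638-98769006, plus strand) was highest in fibroblasts at 143 ± 8.35 CPM, above the ranges of the other lineages among the 7, and adipocyte nuclei had 87.1 to 153 CPM. Epicardium, smooth muscle and pericytes followed at 107, 106 and 102 CPM with overlapping ranges, and CMs had 69.5 ± 5.16 CPM. The 3′ end of Thra overlaps 263 exonic bases of Nr1d1, a clock repressor on the opposite strand, and the sources used here do not say whether counting was by strand. Nr1d1 itself had 3.88 to 11.5 CPM in CMs.

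The levels of Thrb also differed inside the endothelium. The EC cluster led by Nrg1, Npr3 and Vwf had 222, 253, 308 and 156 CPM in sham 1, sham 2, RVVO 1 and RVVO 2, and the other EC clusters together had 38.0, 52.5, 60.1 and 34.0 CPM. This cluster made up 9.83% and 8.53% of ECs in the sham libraries and 18.3% and 27.4% in the RVVO libraries. The ECs leave out an unnamed cluster that scored highest for EC markers. It held 1303, 1155, 292 and 148 nuclei in sham 1, sham 2, RVVO 1 and RVVO 2, and its part in the EC shares and levels was not tested. The part of CM RNA in these Thrb levels was not tested.

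All 3 estrogen-related receptors were highest in CMs, and the gap to other lineages differed between them. Esrrg (chr1:187608791-188214885, plus strand), which is known for its role in the switch to oxidative metabolism after birth, had 1487, 1689, 1698 and 1680 CPM in sham 1, sham 2, RVVO 1 and RVVO 2. These values lie close together, and fibroblasts came next at 207 ± 25.1 CPM, 7.93-fold lower. Fibroblasts stood above the range of ECs (76.9 ± 17.1 CPM), and the lineages from ECs down to smooth muscle had overlapping ranges. Esrrb (chr12:86361117-86521628, plus strand), best known from stem cells, had 157, 256, 225 and 249 CPM in CMs, with sham 1 lowest. It had a mean of 2.81 to 10.9 CPM in the other lineages, so that CMs were 20.3-fold above the epicardium, the next in order. Esrra (chr19:6910977-6921813, minus strand), a partner of the coactivator Ppargc1a, had 142, 172, 140 and 146 CPM in CMs and means of 29.7 CPM in fibroblasts to 59.2 CPM in smooth muscle. Its CM level was 2.54-fold above that of smooth muscle.

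Both retinoid X receptors were near the ends of the order of lineages, at opposite ends. Rxrg (chr1:167598384-167639623, plus strand), the form known from striated muscle, had 78.3 CPM in sham 1 and 39.7, 41.8 and 49.2 CPM in sham 2, RVVO 1 and RVVO 2, so that sham 1 stood apart from the other libraries. Pericytes came next at 12.3 ± 3.62 CPM, 4.24-fold lower. Outside these 7 lineages, the 39 to 107 nuclei per library that carried glial markers had 107 to 150 CPM of Rxrg, above CMs in every library, from 93 UMIs in all. Rxra (chr2:27676440-27762957, plus strand), the broadly expressed form, had 11.04, 11.7, 11.7 and 10.1 CPM in CMs. Its highest level was that of macrophages at 32.2 ± 4.79 CPM, above the range of ECs at 23.2 ± 1.61 CPM, and the ranges of the lineages from ECs to the epicardium overlapped.

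The windows of 250 bases before the annotated starts of both genes are shown because these receptors are partners in dimers that bind copies of AGGTCA and because they stood at opposite ends of the CM order. They are RefSeq sequences on GRCm38.p6, plus strand, at chr1:167598112-167598361 and chr1:167618015-167618264 for Rxrg and chr2:27676951-27677200 and chr2:27709042-27709291 for Rxra, 5′ to 3′, and capitals mark AGGTCA or its reverse complement TGACCT.
Rxrg, first start: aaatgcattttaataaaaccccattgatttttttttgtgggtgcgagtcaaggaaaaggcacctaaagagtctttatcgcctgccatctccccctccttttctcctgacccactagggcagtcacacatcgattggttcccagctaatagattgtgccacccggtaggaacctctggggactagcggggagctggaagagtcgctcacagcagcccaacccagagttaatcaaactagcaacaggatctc
Rxrg, second start: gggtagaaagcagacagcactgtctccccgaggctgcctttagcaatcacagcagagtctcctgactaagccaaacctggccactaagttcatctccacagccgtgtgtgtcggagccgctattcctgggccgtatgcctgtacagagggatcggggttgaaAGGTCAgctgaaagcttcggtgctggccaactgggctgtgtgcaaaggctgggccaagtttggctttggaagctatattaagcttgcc
Rxra, first start: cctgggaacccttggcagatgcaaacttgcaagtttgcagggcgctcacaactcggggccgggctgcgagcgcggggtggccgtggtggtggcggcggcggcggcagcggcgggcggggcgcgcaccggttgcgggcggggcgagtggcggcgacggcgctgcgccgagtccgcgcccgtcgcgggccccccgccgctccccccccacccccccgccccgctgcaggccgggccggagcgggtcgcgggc
Rxra, second start: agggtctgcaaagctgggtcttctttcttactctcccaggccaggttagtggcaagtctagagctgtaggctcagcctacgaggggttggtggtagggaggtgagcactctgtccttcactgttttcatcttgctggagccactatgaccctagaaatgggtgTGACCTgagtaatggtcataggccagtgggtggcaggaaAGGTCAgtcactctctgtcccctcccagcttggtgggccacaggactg
The second start of Rxrg had 1 match and that of Rxra had 2, while the first start of each gene had 0. On either strand, 14% of 32851 windows of this length held such a match, so a match describes the letters and no more.

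The corticosteroid receptors were also divided. Nr3c2 (chr8:76899442-77245012, plus strand), which binds aldosterone and glucocorticoids, had 553, 415, 370 and 358 CPM in CMs in sham 1, sham 2, RVVO 1 and RVVO 2. The mean of CMs was 2.31-fold above smooth muscle (183 ± 41.5 CPM), whose range overlapped those of pericytes at 181 and fibroblasts at 156 CPM. Macrophages had the lowest level, at 82.4 ± 11.6 CPM, below the ranges of the others among the 7, while glial nuclei had 57.1, 69.6, 128 and 86.3 CPM in sham 1, sham 2, RVVO 1 and RVVO 2. Nr3c1 (chr18:39410545-39519421, minus strand) had 140, 147, 187 and 171 CPM in CMs. It was highest in macrophages at 338 ± 27.0 CPM, with a range that overlapped those of pericytes and ECs. The means of pericytes, ECs, fibroblasts and epicardium lay between 269 and 296 CPM with overlapping ranges. Ppard (chr17:28232700-28301474, plus strand), which responds to fatty acids, had 120, 133, 100 and 98.5 CPM in CMs and 142 ± 24.8 CPM in pericytes. Pericytes were above CMs in all 4 libraries, yet the ranges overlapped across libraries.

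RNA of CM genes gave a background in the other lineages. In the mean of the libraries, the splicing factor Rbm20 was counted in ECs at 3.3% of its CM level, the sarcomeric Ttn at 31.1% and the troponin Tnni3 at 153%, and the median over the 10 CM markers was 27.3%. Ryr2 was at 6.0%, but it chose the CMs, so its percent is lowered by the rule. It is among the 10 markers, so the medians given here include it, while neither end of a range rests on it. In ECs Esrrb was at 3.5%, Esrrg at 4.7%, Thrb at 8.4%, Rxrg at 20.3% and Esrra at 22.5% of the CM level. Nr3c2 was at 34.99%, Ppard at 61.2% and Thra at 105%. All of these were inside the range from Rbm20 to Tnni3. In fibroblasts Esrrg was at 12.6% of its CM level, where the markers spanned 2.8% to 131% with a median of 21.4%. In pericytes Ppard was at 126% of its CM level, where the markers spanned 3.5% to 165%. Whether receptor levels inside these ranges are expression in these lineages or this background was not tested. In the mean of the libraries, Rxra at 209% and Nr3c1 at 181% of the CM level in ECs exceeded all 10 CM markers. Rxra did so in each library, whereas in RVVO 1 Nr3c1 was at 141% and Tnni3 at 182%.

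**Figure D2:**
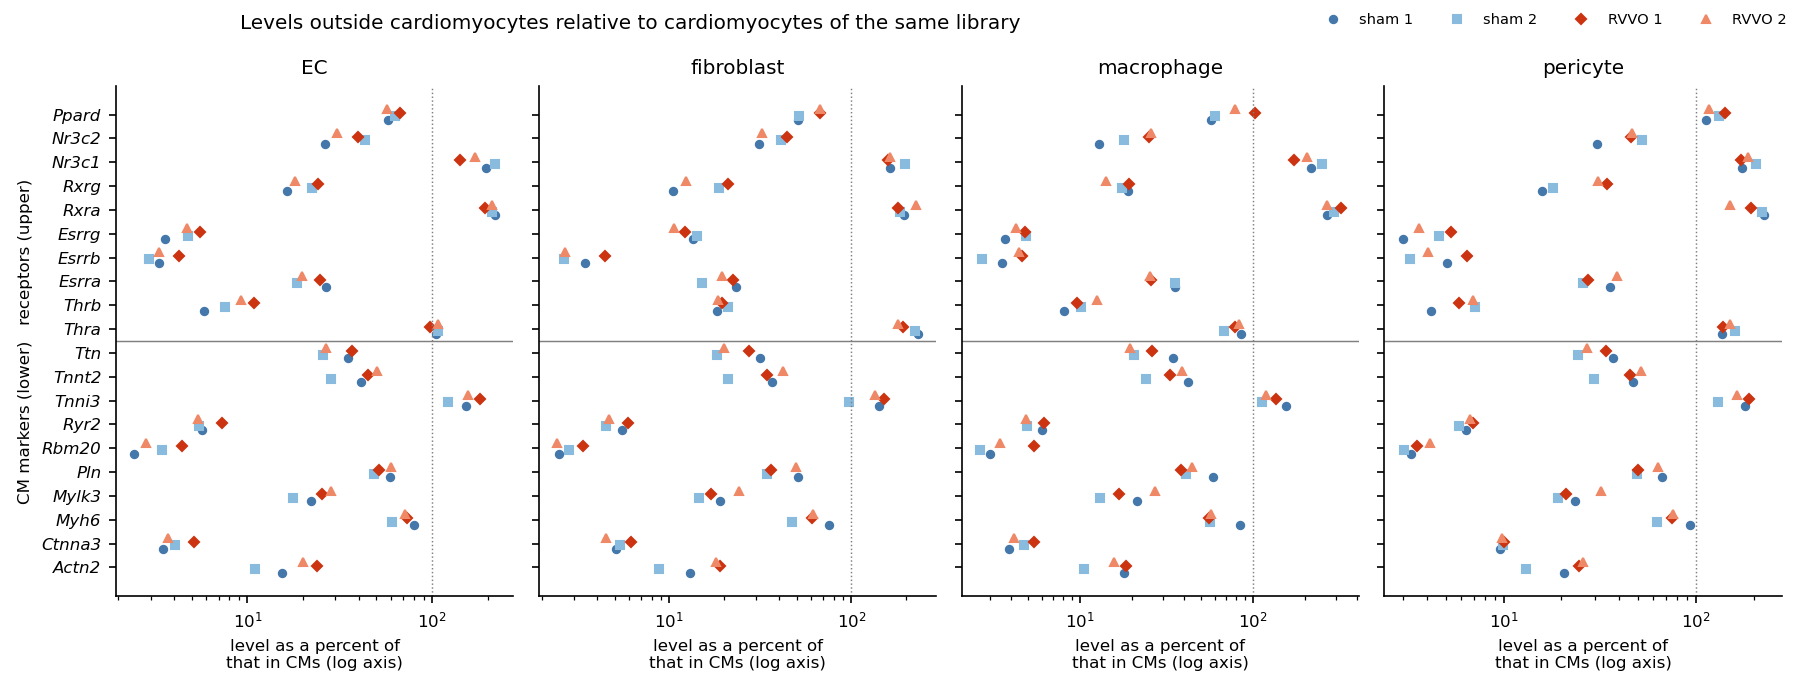
Level of each CM marker (lower rows) and each receptor (upper rows) in 4 lineages as a percent of the level in CMs of the same library (log axis), with 1 point per library and a dotted line at 100%. In ECs Esrrb (3.5%) and Esrrg (4.7%) lie near the low end of the CM markers, beside Rbm20 (3.3%), and Rxra (209%) lies at the far right.

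The 2 clusters that held most CMs can be set side by side. Nr3c2 had 554, 399, 386 and 334 CPM in the cluster led by Ppargc1a, Cacna1c and Rbm20 and 573, 420, 382 and 380 CPM in the cluster led by Fhl2 (sham 1, sham 2, RVVO 1 and RVVO 2). Ppard had 117, 136, 108 and 94.5 CPM in the first and 118, 135, 99.8 and 104 CPM in the second. In both clusters sham 1 was highest for Nr3c2, and the RVVO values of both genes lay below the sham values. The clusters are parts of the CM sums of the same 4 libraries, so this is no further support. The share of all genes that did so was not counted by cluster. In all CMs 8.93% of genes were lower in RVVO without overlap in CPM. The smaller cluster led by Fgf12, Ryr3 and Kcnj3, with 0, 115, 20 and 135 CMs in sham 1, sham 2, RVVO 1 and RVVO 2, had 504, 911 and 323 CPM of Thrb in the libraries that held it and 27.7, 0 and 17.5 CPM of Rxrg. The share of the cluster led by Ppargc1a, Cacna1c and Rbm20 was 36.8%, 40.3%, 8.66% and 52.7% of CMs, so RVVO 1 had the lowest share of these CMs.

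For each receptor, the 3 genes most like it were found by the Pearson correlation of log2(CPM + 1) over 28 points, which are 7 lineages in 4 libraries and share libraries and depth, among 11961 genes. Esrrg was closest to Pcdh7 (r = 0.976), Tmem116 and Nt5dc3, and Esrrb to Pkp2 (r = 0.942), 1110034G24Rik and Cox10. Esrra was closest to Agtpbp1 (r = 0.931), Uqcc1 and Pank1. Thrb was closest to Dip2c (r = 0.946), Sycp3 and Ammecr1, and Thra to Rbms3 (r = 0.903), Zfp9 and Zc3h12b. Rxrg was closest to the CM marker Actn2 (r = 0.923), Tmem38a and Asb10, and Rxra to Prdm2 (r = 0.905), Rell1 and Mcmbp. Nr3c2 was closest to Jmy (r = 0.916), Sik3 and Cux2, and Nr3c1 to Orc5 (r = 0.905), Spidr and Spopl. Ppard had the weakest likeness, with Hs1bp3 (r = 0.811), Mapk6 and Msra. Among the receptors themselves Esrrb and Esrrg were the most alike (r = 0.849), and Nr3c2 and Rxra the least (r = -0.829).

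The comparison of RVVO with sham asks whether volume overload is accompanied by other receptor levels in each lineage. It showed no receptor past the threshold in any lineage. In CMs, edgeR's quasi-likelihood test with Benjamini-Hochberg adjustment called 7 of 14796 genes (0.0473%), 0 of the 10 receptors among them, and DESeq2 called 0 receptors too. At an unadjusted p under 0.05 there were 2 receptors, both lower in RVVO, where 5.39% of all genes passed (2.95% higher and 2.45% lower). In ECs the adjusted test called 0.433% of 13172 genes, and 1 receptor had an unadjusted p under 0.05, where 9.72% of all genes did. In fibroblasts, macrophages and pericytes it called 10 genes each, which are 0.0779%, 0.0961% and 0.102% of those tested, and the number of receptors with an unadjusted p under 0.05 was 0, 1 and 0, where 4.18%, 7.29% and 4.61% of all genes did. After scaling by TMM (trimmed mean of M-values), the groups of ECs did not overlap for 1 receptor that was higher and 4 that were lower in RVVO, where 19% and 19.3% of all genes did so. These numbers were 0 and 3 in fibroblasts (15.3% and 16.4% of all genes), 3 and 1 in macrophages (18.4% and 19.1%) and 4 and 2 in pericytes (15.8% and 17.2%). DESeq2 called 0 receptors in each of these lineages. The lowest adjusted p of the 49 tests of receptors was 0.460. A receptor without a call may still differ: in simulated CM counts the same test missed most of the smaller changes that had been put in, and its calls held more false ones than the threshold allows for.

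**Figure D3:**
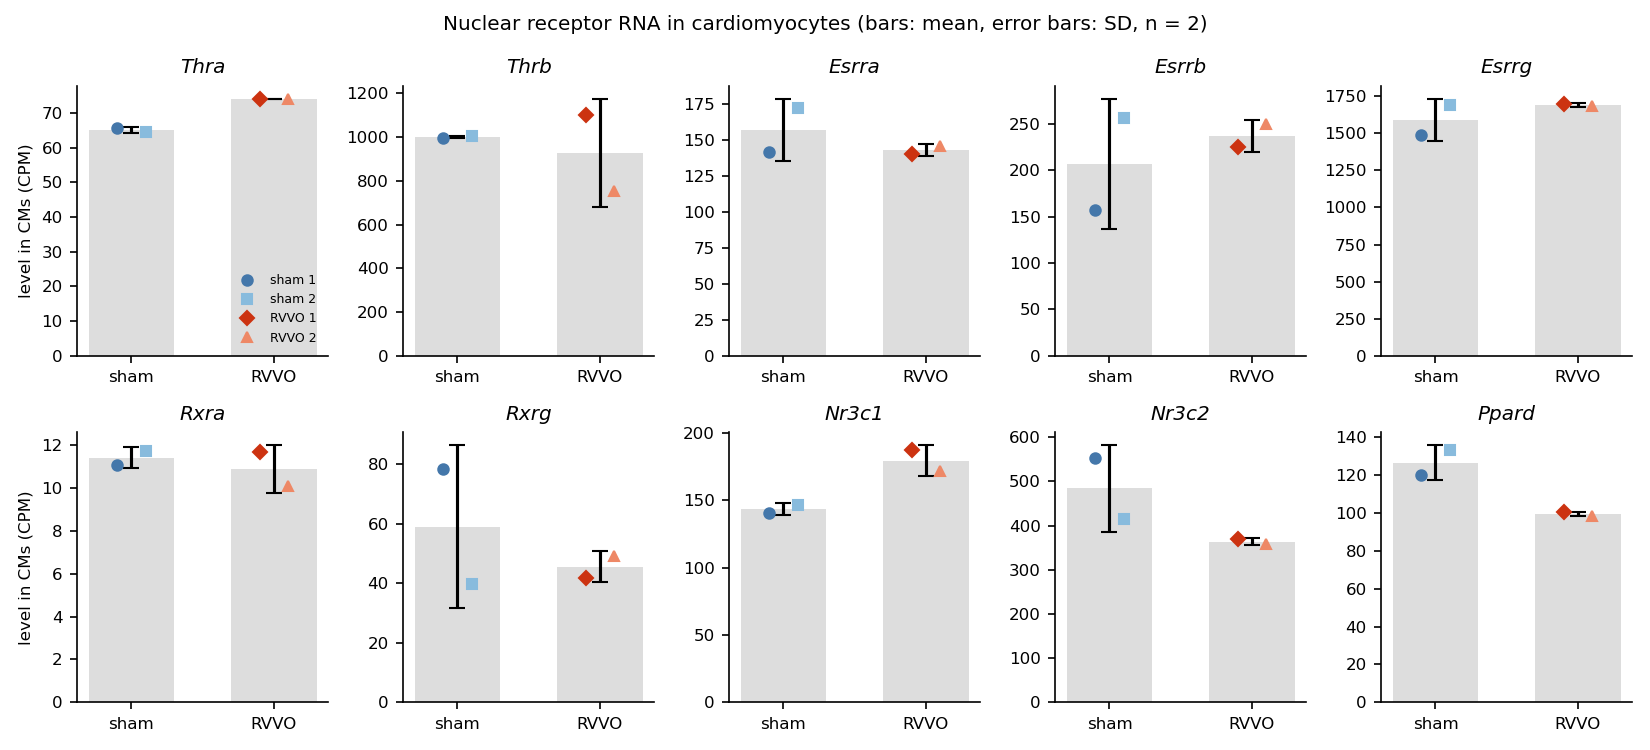
Level of each receptor in CMs (CPM, axis from 0), with 1 point per library, grey bars for the mean of 2 libraries and error bars for the SD. The sham and RVVO points of Thra, Nr3c1, Nr3c2 and Ppard do not overlap, and none of these differences passed an adjusted p of 0.05. Of all genes in CMs, 28.5% were higher and 8.93% lower in RVVO without overlap in CPM.

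Both receptors with the lowest p in CMs were lower in RVVO. Nr3c2 had 553 and 415 CPM in the sham libraries and 370 and 358 CPM in the RVVO libraries, a log2 fold change of -0.52 (SE 0.161, unadjusted p = 0.0221 and adjusted p = 0.904 by edgeR). The RVVO values lay below both sham values, and sham 1 was the farthest from the rest. Ppard had 120 and 133 CPM in sham and 100 and 98.5 CPM in RVVO, a log2 fold change of -0.46 (SE 0.135, unadjusted p = 0.0176 and adjusted p = 0.904 by edgeR). Its groups did not overlap either. With every nucleus thinned to 1000 UMIs, 36.6% and 30.03% of sham CMs and 28.5% and 27.6% of RVVO CMs had a Nr3c2 UMI, against 5.6% to 9.06% of macrophages, where its level was lowest. For Ppard the shares of CMs were 11.4% and 12.5% in sham and 8.59% and 9.6% in RVVO. Without thinning they were 76.2%, 69%, 83.3% and 71.1% for Nr3c2 and 43.8%, 44.2%, 53.6% and 38.1% for Ppard, highest in RVVO 1, where CMs had the most UMIs. The median UMIs were 4906 to 8531 in CMs and 1845 to 3398 in macrophages. With 2 libraries per group, the smallest p that exact permutation (two-sided) can give is 0.333, and the thinned shares of both genes had this p.

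Nr3c1 and Thra had higher levels in both RVVO libraries than in both sham libraries. Nr3c1 had 140 and 147 CPM in sham and 187 and 171 CPM in RVVO, a log2 fold change of 0.21 (SE 0.123, adjusted p = 0.937 by edgeR). Thra had 65.6 and 64.6 CPM in sham and 74.0 CPM in both RVVO libraries, a log2 fold change of 0.07 (SE 0.129, adjusted p = 0.967). After TMM neither overlapped, and Esrra and Rxra were then also lower in RVVO without overlap, so that 2 receptors were higher and 4 lower. Of all genes 16.7% were higher and 16.8% lower without overlap after TMM, against 28.5% and 8.93% in CPM, where 2 receptors were higher and 2 lower. The median of all genes in CMs lay at 0.0999 on the log2 scale in CPM and at 0.0062 after TMM.

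CM sums also held RNA of other cell types, in differing amounts. The 9 macrophage markers, each counted in at least 1 library, summed to 81.9 and 36.2 CPM in sham CMs and to 262 and 127 CPM in RVVO CMs, against 6834 to 9732 CPM in macrophages. The 10 fibroblast markers summed to 275 and 216 CPM in sham CMs and 428 and 460 CPM in RVVO CMs. The 10 EC markers summed to 372 and 164 CPM in sham CMs and 640 and 271 CPM in RVVO CMs. The part of this RNA in the differences of Nr3c1, Nr3c2 and Ppard was not tested. With CMs taken by cluster, which leaves out the unnamed clusters, the log2 fold changes were 0.24 for Nr3c1, -0.47 for Nr3c2 and -0.42 for Ppard.

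The other receptors in CMs had overlapping groups in CPM and small or uneven differences. Thrb differed by a log2 fold change of -0.22 (SE 0.193), with RVVO 1 the highest and RVVO 2 the lowest library, and ranged from -0.49 without RVVO 1 to -0.0095 without RVVO 2. Rxrg differed by -0.48 (SE 0.330), which rests on sham 1: without that library the log2 fold change was 0.06. Esrra differed by -0.25 (SE 0.158), Esrrb by 0.08 (SE 0.264), Esrrg by -0.02 (SE 0.139) and Rxra by -0.18 (SE 0.197). Leaving out 1 library moved Esrra from -0.41 (without sham 1) to -0.08 (without sham 2), Rxra from -0.25 (without RVVO 1) to -0.12 (without sham 2), and Esrrb and Esrrg to either side of zero. The adjusted p of these 6 receptors by edgeR lay between 0.937 and 0.992.

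**Figure D4:**
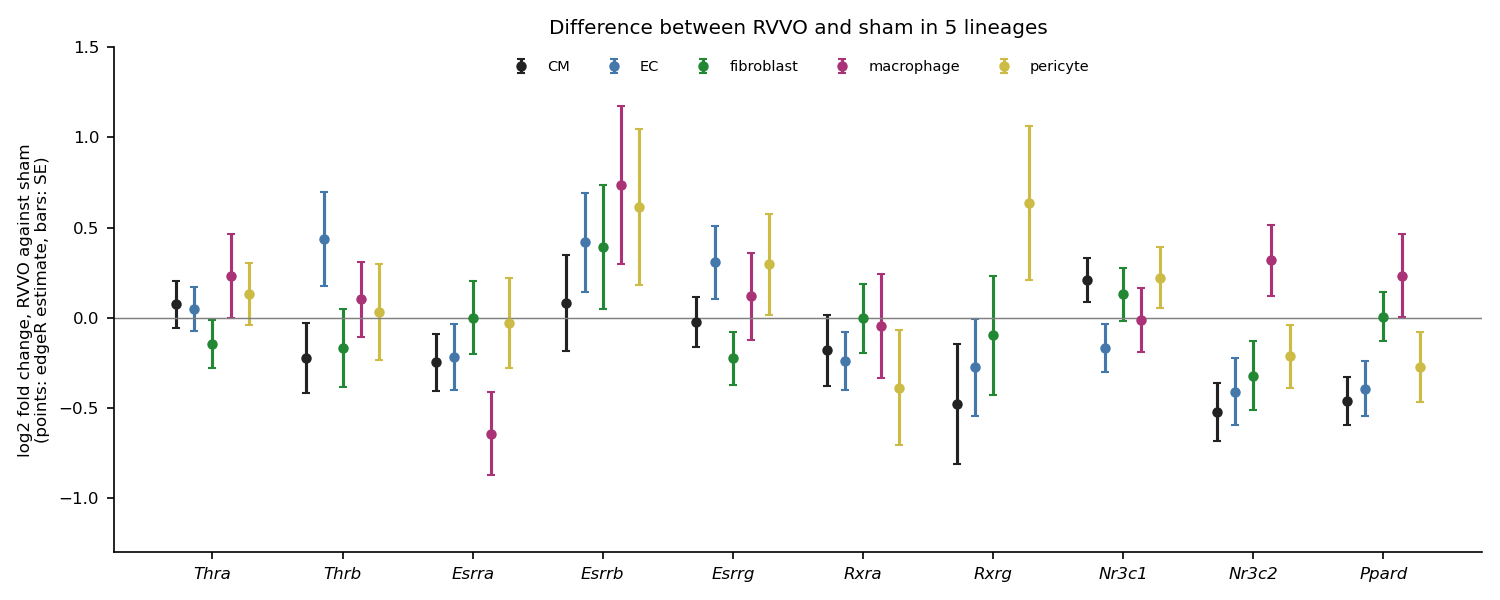
Log2 fold change of each receptor, RVVO against sham, in CMs, ECs, fibroblasts, macrophages and pericytes (points: edgeR estimate, bars: SE). The 49 values lie between -0.64 and 0.74, and 0 passed an adjusted p of 0.05. The highest is that of Esrrb in macrophages, which passed the filter on low counts only through the RVVO libraries, as did Esrrb in pericytes.

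In the other lineages, Nr3c2 had a lower estimate in RVVO in 3 of 4 and Ppard in 2 of 4. The lineages are parts of the same 4 libraries, so a shared sign is no further support. In the mean of the libraries, Nr3c2 was at 20.3% (macrophages) to 43.96% (pericytes) of its CM level. Ppard was at 59.3% (fibroblasts) to 126% (pericytes). All of these lie inside the range of the CM markers in the same lineage. The part of CM RNA in the differences below was not tested. In ECs Ppard had 69.7 and 83.8 CPM in sham and 66.8 and 56.1 CPM in RVVO (log2 fold change -0.39, SE 0.154, unadjusted p = 0.0364, adjusted p = 0.460 by edgeR), without overlap. It was -0.56 without RVVO 1 and -0.25 without RVVO 2. EC Nr3c2 had 146, 179, 148 and 109 CPM in sham 1, sham 2, RVVO 1 and RVVO 2 (-0.41, SE 0.187, adjusted p = 0.557 by edgeR), and these groups overlapped in CPM. Its value was -0.68 without RVVO 1 and -0.18 without RVVO 2. In fibroblasts Nr3c2 had 173, 171, 164 and 116 CPM (-0.32, SE 0.192, adjusted p = 0.999 by edgeR), with RVVO 2 below the others, and the value was -0.62 without RVVO 1 and -0.07 without RVVO 2. In pericytes the estimate was -0.21 for Nr3c2 and -0.27 for Ppard, and without sham 2 they were -0.03 and -0.09. In macrophages the estimate of Nr3c2 had the other sign, at 70.7 and 74.2 CPM in sham and 92.9 and 91.7 CPM in RVVO (0.32, SE 0.195, adjusted p = 0.778 by edgeR).

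Esrra in macrophages had the lowest log2 fold change of the 49 receptor tests. It had 50.2 and 61.2 CPM in sham and 36.1 and 36.9 CPM in RVVO, a log2 fold change of -0.64 (SE 0.229, unadjusted p = 0.0232, adjusted p = 0.598 by edgeR), from 244 UMIs in all. Esrra in macrophages was at 25.2% to 35.5% of its CM level, inside the range of the CM markers there (3.6% to 131% in the mean of the libraries). These 10 markers summed to 23068 and 14348 CPM in sham macrophages and to 16096 and 14367 CPM in RVVO macrophages, and their part in the value of Esrra was not tested. EC Thrb had 58.2, 75.5, 120 and 69.6 CPM (0.44, SE 0.262, adjusted p = 0.725 by edgeR), and its value without RVVO 1 was -0.05. The EC cluster with high Thrb made up more of the ECs in both RVVO libraries, as given above. The groups overlapped inside that cluster as well as outside it. The part of cluster shares in the EC value of Thrb was not tested. Rxrg was not tested in macrophages, where it had 14.9, 6.90, 8.01 and 6.98 CPM from 48 UMIs and only sham 1 reached the level of the filter.

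The difference of the RVVO effect between CMs and another lineage was tested directly, with the library as a block, for ECs, fibroblasts and macrophages. In each of the 3 tests 0 genes passed by edgeR (0% of 15063, 15143 and 14913 genes). At an unadjusted p under 0.05 there were 5.04%, 3.96% and 5.63% of all genes and 1, 1 and 2 receptors. DESeq2 was not run on these differences. The difference farthest from zero among the receptors was that of Nr3c2 against macrophages (-0.82 on the log2 scale, SE 0.246, unadjusted p = 0.00903, adjusted p = 0.752 by edgeR). Ppard differed by -0.68 against macrophages (adjusted p = 0.791) and by -0.46 against fibroblasts (adjusted p = 0.957), and Thrb by -0.61 against ECs (adjusted p = 0.938).

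Among the other genes of these pathways in CMs, edgeR called 0 after adjustment, and DESeq2 was not counted by list, whereas 6 of 6 sex genes were called by edgeR. The lists of pathway genes were chosen with earlier results of these data known, so their counts and medians below are a description. Of 25 other nuclear receptors tested, 5 were lower in RVVO at an unadjusted p under 0.05 and 0 higher, where 2.45% of all genes were lower, and the list's median log2 fold change was -0.07 against 0.0077 for all genes. After TMM, 1 was higher and 8 were lower without overlap, where 16.7% and 16.8% of all genes were. The most abundant were Rora, a clock activator, with 1981 and 1883 CPM in sham and 2462 and 1492 CPM in RVVO, and Ppara, the fatty acid receptor of the adult heart. Ppara had 662 and 670 CPM in sham and 543 and 468 CPM in RVVO (log2 fold change -0.51, SE 0.126, unadjusted p = 0.00888, adjusted p = 0.904 by edgeR). Rarb, a retinoic acid receptor, had 263, 320, 320 and 282 CPM, and the clock repressor Nr1d2 had 188 and 208 CPM in sham and 134 and 158 CPM in RVVO (-0.55, SE 0.158). The other 3 at an unadjusted p under 0.05, named after their values were seen, were Nr1d1, Nr1h2 (an oxysterol receptor) and Nr4a3 (an immediate early gene). Nr4a3 had 26.5 and 22.6 CPM in sham and 2.27 and 8.02 CPM in RVVO.

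Among 10 thyroid hormone targets, 3 were lower at an unadjusted p under 0.05 and 0 higher, where 2.45% of all genes were lower and 2.95% higher, and the median was -0.37 against 0.0077 for all genes. After TMM 8 of the 10 were lower without overlap and 0 higher, where 16.8% and 16.7% of all genes were. The list was not split by whether the hormone raises or lowers a gene, so these numbers do not measure its action. The list was chosen with earlier results of these data known, so 8 of 10 is a description and no support. It shares Myh6 and Pln with the 10 CM markers, which summed to 68967 and 71950 CPM in sham and 67050 and 63908 CPM in RVVO CMs. The part of this difference in the numbers of the list was not tested. The calcium pump Atp2a2 had 5231 and 4928 CPM in sham and 4225 and 4196 CPM in RVVO (log2 fold change -0.38, SE 0.131, unadjusted p = 0.0317, adjusted p = 0.904 by edgeR). The potassium channel Kcnd2 had 6406 and 5611 CPM against 4926 and 4276 CPM, and the third was the mitochondrial carrier Ucp3, named after its values were seen, with 131 and 159 CPM against 71.7 and 96.2 CPM. Myh6, the adult myosin heavy chain that thyroid hormone is known to raise, had 11580, 9852, 10930 and 9809 CPM (-0.16), and Myh7, the fetal one, named after its values were seen, had 393, 364, 402 and 380 CPM (-0.06). Both myosins overlapped in CPM and were lower in RVVO without overlap after TMM. Pln, the inhibitor of the calcium pump, had 1814, 1591, 1737 and 1894 CPM (-0.02, SE 0.139), with overlapping groups.

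Of 19 targets of estrogen-related receptors and peroxisome proliferator-activated receptors, 1 was lower and 0 higher at an unadjusted p under 0.05, a share near the 5.39% of all genes in either direction, and the median was -0.07 against 0.0077. After TMM 2 were higher and 3 lower without overlap, where 16.7% and 16.8% of all genes were. The gene at an unadjusted p under 0.05 was Pdk4, the kinase that turns pyruvate away from oxidation, with 1026 and 1271 CPM in sham and 501 and 551 CPM in RVVO (log2 fold change -1.24, SE 0.171, unadjusted p = 0.000667, adjusted p = 0.904 by edgeR). Both RVVO values lay below both sham values. The fatty acid transporter Cd36 had 1525, 1623, 1687 and 1714 CPM and the creatine kinase Ckmt2 had 858, 680, 1048 and 894 CPM, and for both the groups overlapped after TMM. Among 16 coregulators, 0 had an unadjusted p under 0.05 by edgeR, where 5.39% of all genes did. After TMM, 1 was higher and 5 were lower without overlap, where 16.7% and 16.8% of all genes were. The most abundant, the coactivator Ppargc1a, had 10160 and 10570 CPM in sham and 4264 and 8737 CPM in RVVO (-0.78, SE 0.364, adjusted p = 0.934 by edgeR), with RVVO 1 lowest, and its relative Ppargc1b had 763, 828, 673 and 792 CPM.

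The 10 glucocorticoid targets had a median of 0.17 against 0.0077 for all genes. At an unadjusted p under 0.05, 1 was lower and 0 higher, where 2.45% and 2.95% of all genes were. After TMM 2 were lower without overlap and 0 higher, where 16.8% and 16.7% of all genes were. Zbtb16, the most abundant, had 1706, 1856, 2274 and 1310 CPM. Fkbp5, a chaperone partner of the receptor, had 80.2, 40.1, 284 and 79.5 CPM, so that RVVO 1 alone was high and the groups overlapped. The lower gene was Klf15, named after its values were seen, with 55.6 and 65.5 CPM against 49.7 and 41.2 CPM. Of 21 genes of hormone and retinoid supply, 13 were tested, with a median of 0.07, and 2 were lower and 0 higher at an unadjusted p under 0.05, where 2.45% and 2.95% of all genes were. After TMM 3 were higher and 3 lower without overlap, where 16.7% and 16.8% of all genes were. The 2 at an unadjusted p under 0.05 were the retinal reductase Dhrs3, with 119 and 148 CPM against 86.1 and 111 CPM, and the thyroid hormone carrier Slco1c1, named after its values were seen. The thyroid hormone transporter Slc16a10 was the most abundant at 327, 402, 428 and 357 CPM. The deiodinases Dio1, Dio2 and Dio3, which activate or inactivate thyroid hormone and were also named after their values were seen, were at most at 0.329 CPM in any CM library, and a count of 0 allows up to 0.0987 to 0.207 CPM, by counting error only.

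**Figure D5:**
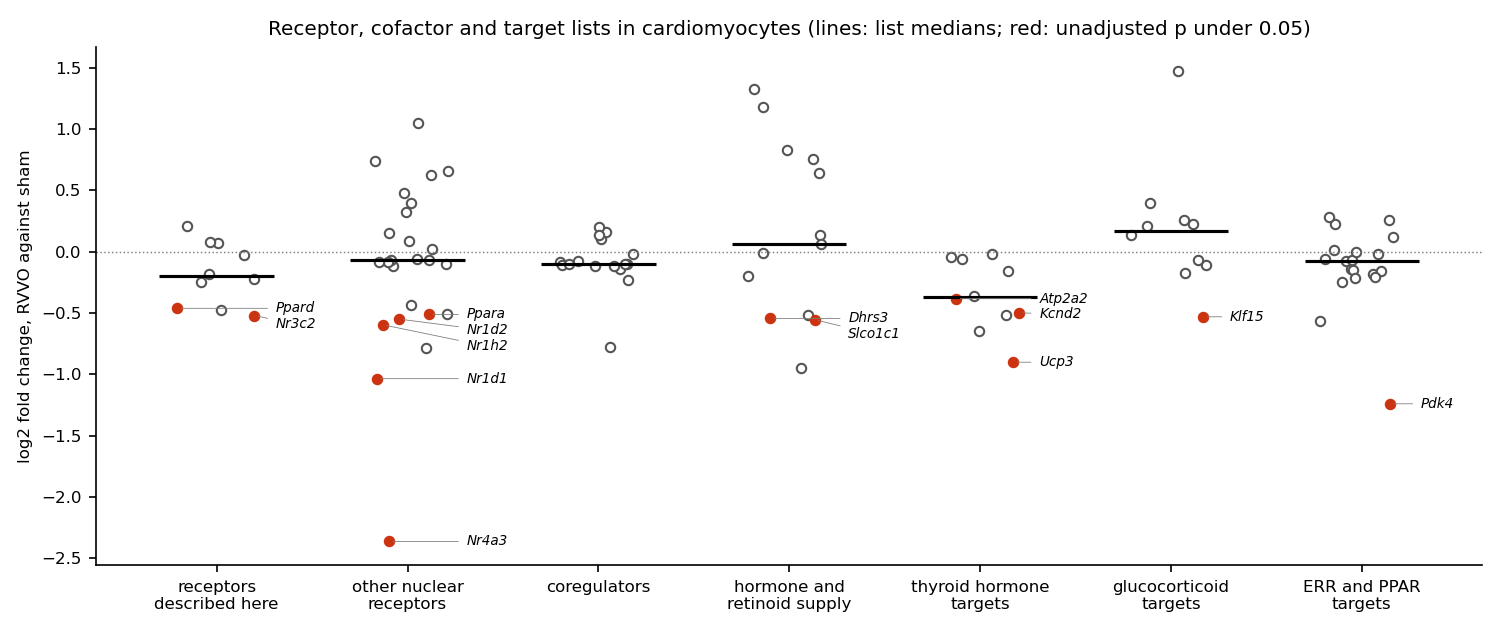
Log2 fold change in CMs, RVVO against sham, of each gene tested in 7 lists, with a line at the list median; red points have an unadjusted p under 0.05 and are named. The 2 red receptors, Ppard and Nr3c2, lie at -0.46 and -0.52, and no gene shown passed an adjusted p of 0.05.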

How the data were processed

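The authors deposited matrices of raw UMI counts per gene and nucleus barcode (10x Genomics, nuclear RNA), made by Cell Ranger 5.0.0 per the file headers, while the submitters' processing notes name Cell Ranger 3.0.1, STAR, Seurat 3.0.2 and GRCm38. The sources used here do not say how introns and strand were counted. Barcodes needed 200 genes and under 10% mitochondrial UMIs, and the highest doublet scores (0.8% per 1000 barcodes) were removed. Nuclei were clustered by the Leiden method (scanpy 1.11.5) with the receptors and listed genes left out. Clusters were named from markers by thresholds chosen with the clusters in view, so that 8829 of 43180 nuclei stayed unnamed. Unnamed nuclei were 30.7% and 21.7% of those kept in sham 1 and sham 2 and 15.7% and 11.8% in RVVO 1 and RVVO 2. The part of this difference in the comparison of RVVO with sham was not tested. Counts were summed per library and lineage and tested by edgeR 4.0.16 (TMM, filterByExpr, quasi-likelihood test, Benjamini-Hochberg adjustment over all genes), which was also tested on simulated data. Differences between lineages had the library as a block. Thinning left out 0 to 120 CMs per library. DESeq2 1.42.0, other scalings, filters and CM rules, a block on replicate number and fits without 1 library were alternatives. Gene positions are from GENCODE M21, which holds 27645 of the 27998 identifiers. The receptors and lists were chosen with earlier results of these data known. Named genes were the receptors, their 3 most alike genes and, per list, genes called in CMs or else up to 4 with the highest mean CPM there, apart from those marked as chosen after their values were seen.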

Additional observations from a re-analysis of the deposited data

How the results depend on the processing

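Under every alternative run, 0 receptors were called in CMs, ECs, fibroblasts, macrophages and pericytes. In CMs the log2 fold change of Nr3c2 stayed between -0.70 (without sham 2) and -0.33 (without sham 1), with adjusted p from 0.344 to 0.9998. Counts of all genes called moved more. DESeq2 called 46 genes in CMs (7 by edgeR), 229 in ECs (57), 44 in fibroblasts (10) and 25 in macrophages (10). With no filter on low counts there were 13 in ECs, 190 in fibroblasts, 220 in macrophages and 110 in pericytes (10), and interactions, with 0 by edgeR's filter, had 1 (ECs), 3 (fibroblasts) and 209 (macrophages). The stricter barcode filter (500 genes, 5% mitochondrial UMIs) gave 37 in ECs and 6 in pericytes, and thinning gave 94 in ECs. With CMs by cluster, interactions had 1 gene for fibroblasts and 1 for macrophages. Leaving out 1 library gave 6 to 7 genes in CMs and 78 to 548 in ECs (375 without sham 1, 548 without sham 2, 132 without RVVO 2). It gave 11 to 146 in fibroblasts (58 without sham 1, 146 without sham 2), 4 to 229 in macrophages (5 without sham 1, 229 without sham 2, 4 without RVVO 2), 9 to 91 in pericytes (91 without sham 2, 44 without RVVO 2) and 0 to 98 for the interaction with macrophages (98 without sham 1, 3 without sham 2). The cause was not tested.

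Of 338 alternative log2 fold changes of receptors, 320 kept their sign. They cover 28 of the 49 receptor tests. These are all 10 receptors in CMs, Thra, Nr3c1, Nr3c2 and Ppard in the other lineages, macrophage Esrra and EC Thrb. The remaining tests, among them Esrrb in macrophages and pericytes, were not counted. CM Esrrg (-0.02) became 0.031 without doublet removal, 0.071 after thinning, 0.096 at Ryr2 of 2%, 0.049 by cluster and -0.14 to 0.089 on leaving out 1 library. On leaving out 1 library, CM Esrrb ranged from -0.25 to 0.50, CM Rxrg from -0.88 to 0.058 (without sham 1) and EC Thrb from -0.048 (without RVVO 1) to 0.80. Fibroblast Ppard became -0.0052 after thinning and -0.044 to 0.068 on leaving out 1 library. Macrophage Ppard became -0.13 after thinning and -0.0022 to 0.45, and macrophage Nr3c1 became 0.00046 without doublet removal and -0.11 to 0.080. Of 150 alternative levels 141 moved by at most 1 SD over the 4 libraries. Of 20 alternative differences in shares of CMs, 11 moved by more than the larger of the SDs inside the groups. Without thinning, the differences in shares for Nr3c2 and Ppard had the other sign, higher in the mean of RVVO.

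In the labels, libraries of the 2 groups share only a replicate number. The correlation of deviations between equal numbers was 0.335 in CMs and -0.0198 to 0.0396 in the other lineages. Some nuclei counts also went with the number. Epicardial nuclei were 98 in sham 1 and 122 in RVVO 1 against 414 in sham 2 and 509 in RVVO 2. Adipocyte nuclei were 13 and 10 against 111 and 137. The cause was not tested. With the replicate block 105 genes were called in ECs, the other lineages stayed within 1.5 times, and the log2 fold changes in CMs were -0.51 for Nr3c2 and -0.46 for Ppard. The 933 UMIs of Rxra over all CMs limit its precision.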
